A study of Mus musculus with 9 samples.

Results

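The genes Tat, Hpd, Hgd, Fah, Tdo2, Haao and Pipox encode liver enzymes that break down amino acids. They were chosen by name, as a set of enzymes of amino acid catabolism, with earlier results of these data known. All regions that the file assigns to them were taken: 7 of 13770 genes and 93 of 92645 regions. The values are counts of Argonaute (AGO) crosslinking and immunoprecipitation (CLIP), in which ultraviolet light fixes AGO, the protein that carries microRNAs, to the RNA it touches. Livers of 9 mice aged 6 weeks were compared, 5 floxed littermate controls labelled WT and 4 miR-122 knockouts (KO), with 1 library per mouse. Of the controls, replicates 1 to 3 were female and 4 and 5 male; of the KO mice, only replicate 1 was female. The sources used here give neither the Cre driver nor the strain background. The comparison addresses which liver RNAs miR-122 brings AGO to.

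Tyrosine is broken down by a chain of enzymes of which Tat (tyrosine aminotransferase) takes the first step, Hpd (4-hydroxyphenylpyruvate dioxygenase) the next, then Hgd (homogentisate dioxygenase), and Fah (fumarylacetoacetase) the last. Tdo2 (tryptophan dioxygenase) opens the kynurenine pathway of tryptophan, and Haao (3-hydroxyanthranilate dioxygenase) acts further down it, towards NAD. Pipox is a peroxisomal oxidase of pipecolic acid, from lysine, and of sarcosine. MicroRNAs guide AGO to sites complementary to their seed, the bases near the 5' end; miR-122 is the most abundant microRNA of hepatocytes, and its best known targets carry such sites in 3' UTRs.

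Of the 93 regions, 11 held a seed match of miR-122-5p, in 6 of the 7 genes, and none of these lay in a 3' UTR. They were 3 coding regions, 1 in a 5' UTR, 4 in introns and 3 in SINE repeats. Of all 10628 regions of the file with such a match, 25.2% lay in 3' UTRs and 29.8% in coding sequence. Those regions include matches that the file labels miR-122-5p-B, an alternative class of which the 11 regions here hold none. Shares over the file of regions or sums with or without a match count the B class as a match throughout. Match classes are those of the file: an 8mer is the longest, 7m8 and 7A1 are the shorter 7-base classes, and a 6mer is the shortest. The Haao site, whose region held most of that gene's reads in controls, is printed because its sequence was available from a RefSeq promoter window. It lies in the 5' UTR on the minus strand (GRCm38.p6, which mm10 denotes, chr17:83846761-83846790, sequence from RefSeq), and the capitals mark the 6 matched bases, which an A follows, as a 7A1 match has:
Haao 5' UTR site: cgcagatcgcatCACTCCaacctcccgatt

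For 7 of the other microRNA families whose matches lie in regions discussed here, the mature sequence of 1 member is given from RefSeq. Each is written 5' to 3', with the seed (bases 2 to 8) in capitals. The Tat 3' UTR regions, which went up in KO livers, held matches of the let-7, miR-26, miR-23, miR-17 and miR-15/16 families; regions of Fah and Pipox that fell without a miR-122-5p match held matches of miR-103/107 and miR-194. The 7 printed seeds differ from one another, and those of miR-16 and miR-103 share AGCAGCA and GCAGCAU in part, offset by a base.
let-7a-5p: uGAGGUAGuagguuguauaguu
miR-26a-5p: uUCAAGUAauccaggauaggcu
miR-23a-3p: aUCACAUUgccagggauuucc
miR-17-5p: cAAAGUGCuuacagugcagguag
miR-16-5p: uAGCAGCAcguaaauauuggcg
miR-103-3p: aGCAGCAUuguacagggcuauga
miR-194-5p: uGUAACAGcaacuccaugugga

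Library totals ran from 445912 to 1170130 counts over all regions, and levels are given as counts per 1000000 of that total (CPM). A floor of 3 counts is 2.56 to 6.73 CPM in a single library, or 0.713 CPM with all controls pooled and 0.807 CPM with all KO libraries pooled; it covers counting error only. The tissue label was borne out by 9 of 9 hepatocyte markers, read in all groups, whose summed level was 22130.0 to 28324 CPM in controls and 15783 to 23127 CPM in KO. Of these 9 markers, 5 were called lower and 1 higher in KO (edgeR, adjusted p under 0.05). Of all genes tested, 23.3% were lower and 21.9% higher. Markers of neurons summed to 28.2 to 40.4 CPM in controls, where 7 of 17 were at 0 in every library (Syn1, Rbfox1, Stmn2, Nefm, Gap43, Gria2 and Grin1), and to 1821 to 7581 CPM in KO, with the highest value in KO replicate 4. Astrocyte and oligodendrocyte markers summed to 0 to 2.82 CPM in controls (Gfap, Aqp4 and Mbp at 0) and 105 to 411 CPM in KO, stellate and matrix markers to 553 to 704 and 1014 to 1882 CPM, Kupffer cell and macrophage markers to 437 to 500.4 and 470.2 to 880.3 CPM, cholangiocyte markers to 13.2 to 36.2 and 73.1 to 112 CPM, and endothelial markers to 381 to 448 and 194 to 441 CPM. The part of these markers in the results below was not tested. Without KO replicate 4 the same numbers of the 7 genes passed in each direction, with and without miR-122-5p regions. In bulk liver, fewer cells of a type and less RNA per cell cannot be told apart, and AGO-bound reads depend on the amount of an RNA as well as on its binding; the matched RNA-seq was not analysed here.

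AGO-bound reads of 6 of the 7 genes fell in KO livers, and those of Tat rose at the edge of the threshold. The falls ran from a log2 fold change (KO over control) of -1.04 in Tdo2 to -3.70 in Haao, and in these 6 genes every KO library lay below every control. Over all 8843 genes tested, 23.3% fell and 21.9% rose at an adjusted p under 0.05, and in 18.3% all KO libraries lay below all controls. The median of the 7 genes was -1.48, against 0.07 over all genes tested. Of all calls, 48.5% were higher in KO; with TMM scaling factors taken from counts outside miR-122-5p regions, which moves the median gene by -0.24, 33.7% were. Adjusted p-values are from edgeR's quasi-likelihood test with sex as a term, over all genes or regions tested.

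**Figure D1:**
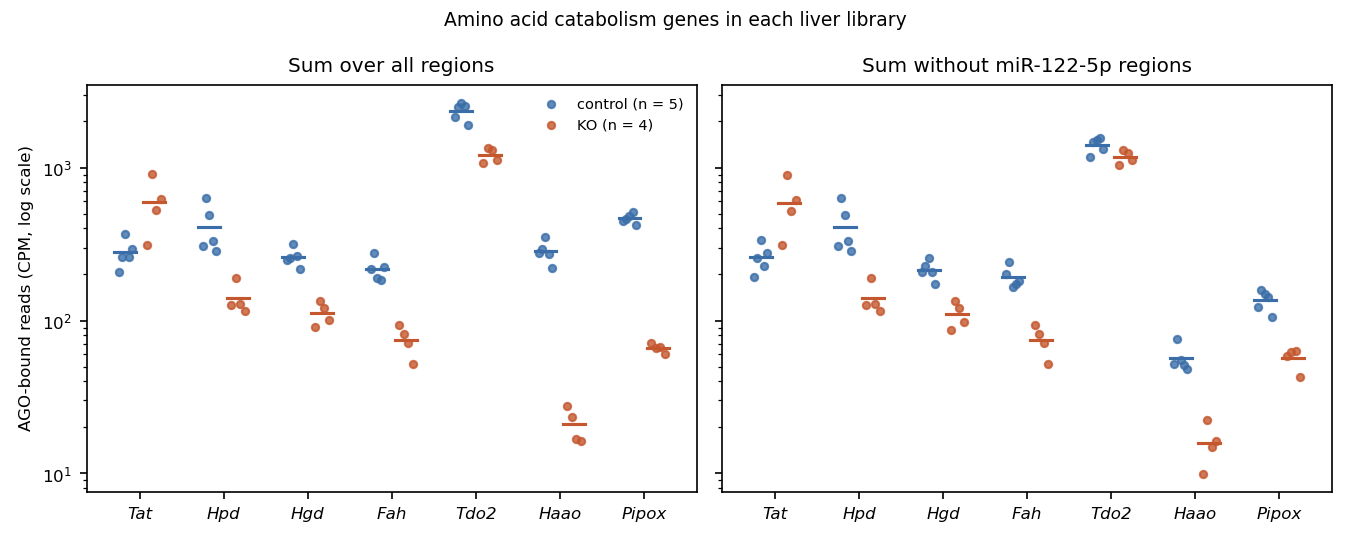
AGO-bound reads of the 7 genes in each library, in CPM on a log scale, summed over all regions (left) and without miR-122-5p regions (right); points are libraries (5 control, 4 KO) and lines are group means. In the left panel the KO points lie below all controls in every gene but Tat; in the right panel Tdo2 overlaps as well.

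Haao showed the largest fall of the 7. Its reads were 275, 294, 354, 270.1 and 220.2 CPM in the controls and 27.8, 23.4, 16.8 and 16.3 CPM in the KO libraries, so the lowest control lay far above the highest KO. The means were 283 ± 48.5 CPM (SD, n = 5) and 21.1 ± 5.52 CPM (n = 4), with a log2 fold change of -3.70 (SE 0.19, adjusted p = 2.5e-07). Pipox came next, with 447, 462, 481, 514 and 424 CPM in controls against 71.5, 66.3, 67.3 and 60.4 CPM in KO. Its means were 466 ± 34.0 and 66.4 ± 4.58 CPM (log2 -2.89, SE 0.16, adjusted p = 2.8e-07). The spread within each group was small beside that difference.

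Tdo2, the entry enzyme of tryptophan breakdown, was the most heavily read of the 7 genes. It had 2142, 2492, 2640.1, 2517 and 1902 CPM in controls and 1075, 1332, 1295 and 1128 CPM in KO. The groups did not overlap, and the mean went from 2339 ± 306 down to 1208 ± 125 (log2 -1.04, SE 0.19, adjusted p = 9.5e-04).

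The 3 enzymes that follow Tat in tyrosine breakdown also fell. Hpd had 307, 628, 489, 332 and 285 CPM in controls and 127, 190.0, 128 and 116 CPM in KO (means 408 ± 147 and 140.3 ± 33.6; log2 -1.48, SE 0.28, adjusted p = 0.00114). Hgd had 247, 256, 314, 263 and 217 CPM against 90.4, 134, 121 and 101 CPM (means 259 ± 35.1 and 112 ± 19.8; log2 -1.31, SE 0.18, adjusted p = 1.5e-04). Fah, whose loss causes hereditary tyrosinaemia, had 217, 278, 189, 185 and 223 CPM against 93.4, 81.9, 71.0 and 52.2 CPM (means 219 ± 37.2 and 74.6 ± 17.5; log2 -1.57, SE 0.19, adjusted p = 6.3e-05). Hpd varied most among controls, where control 2 stood at 628 CPM.

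Tat went the other way. It had 206, 262, 368, 262 and 294 CPM in controls and 313, 900.5, 529 and 624 CPM in KO, so that KO replicate 1 lay within the control range. The mean was 278 ± 59.5 CPM in controls and 591 ± 244 CPM in KO (log2 0.80, SE 0.31, adjusted p = 0.050, just under the threshold). The call was lost without KO replicate 2 (log2 0.67, adjusted p = 0.0958), without control 1 (0.74, 0.0912), control 2 (0.82, 0.0660), control 4 (0.53, 0.261) or control 5 (0.72, 0.172). It was also lost with scaling factors from counts outside miR-122-5p regions (0.56, adjusted p = 0.151), while the direction held in each of these. The call was kept under DESeq2 (0.84, adjusted p = 0.0252). In edgeR it was kept with library totals (0.89, adjusted p = 0.0189) and with upper quartile factors (0.87, adjusted p = 0.0261). The difference between the sexes in the effect on Tat was 1.25 (male minus female, log2, SE 0.50, edgeR adjusted p = 0.765), with a single female KO mouse behind it; of 8843 genes, 0 passed that edgeR test after adjustment and 547 had an unadjusted p under 0.05.

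Much of the loss in Haao, Pipox and Tdo2 lay in the miR-122-5p regions themselves. Most of the loss in Hgd and Fah lay outside them. In Haao, 79.7% ± 3.87 of reads lay in its 2 such regions in the controls (SD, n = 5), and 19.9% ± 29.9 did in the KO libraries (n = 4). In Pipox the share was 71.0% ± 3.73 and 14.8% ± 11.5, and in Tdo2 39.4% ± 5.74 and 2.66% ± 1.11. It was lower in Hgd (17.7% ± 4.06 and 2.28% ± 1.83), Fah (11.7% ± 4.70 and 0% in each KO library) and Tat (7.14% ± 4.18 and 1.05% ± 0.530), and Hpd had no such region. The groups did not overlap in any of these 6 genes. How often this share separates the groups among all genes with such a region was not computed. Of all matched regions tested in the file, 89.0% were lower in KO, so separation is not particular to these genes. A two-sided exact permutation test of the share gave p = 0.00794 in 5 genes, the lowest p possible with 5 and 4 libraries, and p = 0.0159 in Tat; adjusted over the 6 genes these were 0.00952 and 0.0159. Permuting within sex gave an exact p of 0.0250 in each, the smallest possible there. A matched region can be in the file through control reads alone, as the Fah region was with no read in KO. The direction of these differences was thus partly fixed in advance, and the p-values are a description only. In Tat the share passed with all libraries and missed the threshold without any 1 of the KO libraries (adjusted exact p = 0.0536 in each case). The KO values of Haao were uneven, at 64.3% in KO replicate 1 and 4.17%, 11.1% and 0% in the others, over only 10 to 28 reads per library.

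**Figure D2:**
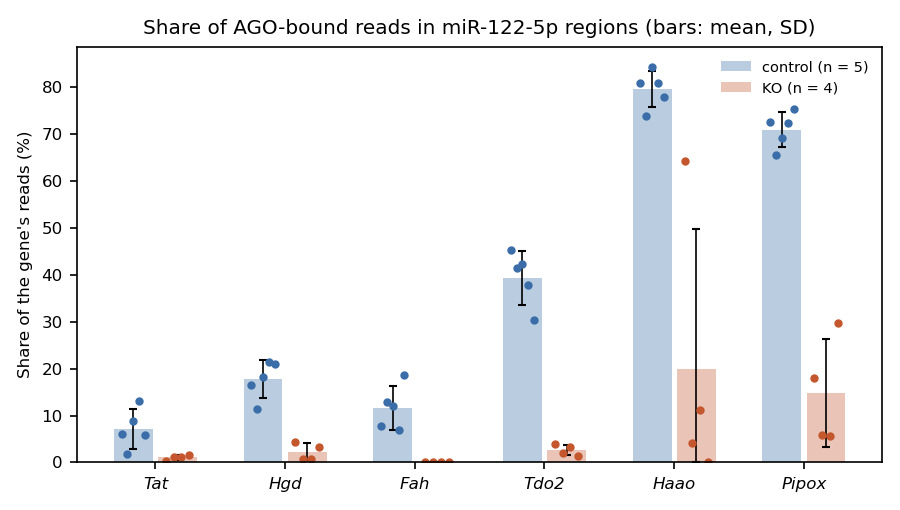
Share of each gene's AGO-bound reads that lay in its miR-122-5p regions, in percent, for the 6 genes that have such a region; points are libraries, bars are means and error bars SD, drawn no lower than 0. Control bars run from 7.14% in Tat to 79.7% in Haao, and the KO bar of Haao holds 1 library at 64.3%.

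At single regions the fall was far steeper than in the sums. The Tdo2 region (coding, 7A1 match, mm10 chr3:81962731-81962800) held 969.7, 1034, 1117, 951 and 577 CPM in controls and 41.7, 27.3, 42.0 and 16.3 CPM in KO. No KO library reached even the lowest control, with means of 929.8 ± 207 and 31.8 ± 12.4 CPM (log2 -4.76, SE 0.30, adjusted p = 1.3e-08). The same region also holds matches of miR-148/152 (7A1) and miR-130/301 (6mer). The match is at conserved bases, with a mean phyloP of 1.82 over its 6 bases (the authors' deposited score). By the same score the miR-122-5p matches of Pipox (0.133), Fah (-0.466), Tat (0.0701) and Hgd (-0.291 to 0.289) were near 0 or below.

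The next coding region of Tdo2 towards the 3' end (chr3:81961445-81961514) was read as heavily in controls and had similar levels in both groups. It had 755, 998, 999.9, 1054 and 949 CPM in controls and 793, 968, 937 and 922 CPM in KO. Its groups overlapped (log2 -0.18, SE 0.24, adjusted p = 0.568, which does not show that they are equal); it holds a 6mer of the miR-15/16 family and none of miR-122-5p. Of the other Tdo2 regions, 3 coding ones fell, by log2 values of -1.49 (chr3:81958800-81958869), -1.35 (chr3:81963936-81964005) and -2.22 (chr3:81974305-81974374), and the remaining 5 tested did not pass.

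**Figure D3:**
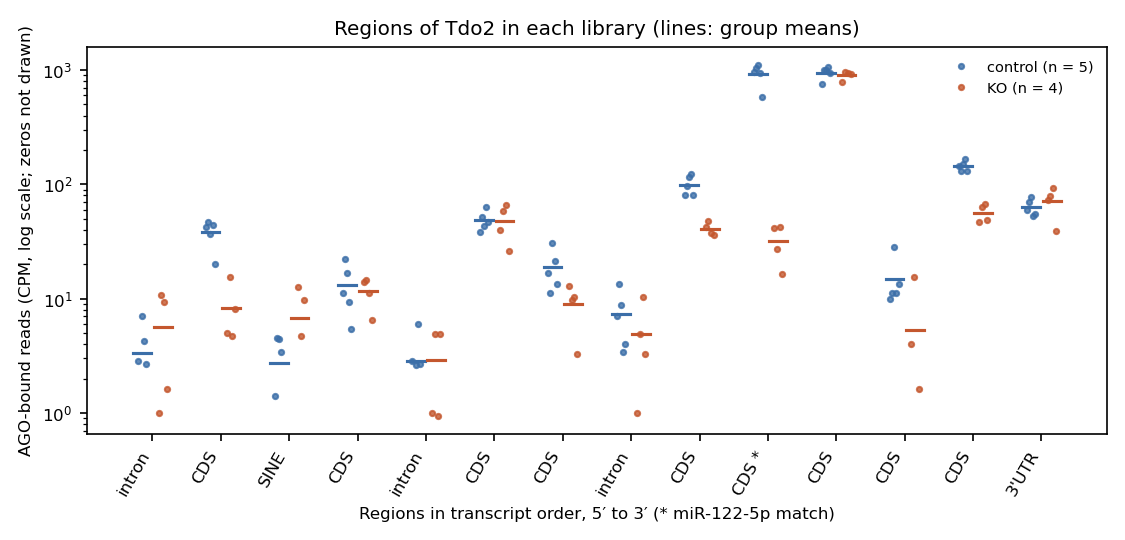
AGO-bound reads in each Tdo2 region, in transcript order from 5' to 3', in CPM on a log scale; points are libraries, lines are group means, zeros are not drawn and the asterisk marks the miR-122-5p match. The marked region dropped from about the level of its 3' neighbour in controls to 31.8 CPM on average in KO, while the neighbour stayed at 905 CPM.

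The Haao 5' UTR region that holds the printed site (chr17:83846745-83846814) had 219.9, 209, 294, 217 and 164 CPM in controls and 16.9, 0.975, 1.87 and 0 CPM in KO. KO replicate 1 stood above the other KO libraries, and all lay below the controls (means 221 ± 46.7 and 4.93 ± 8.01; log2 -5.33, SE 0.49, adjusted p = 2.4e-07). Without KO replicate 1 the log2 fold change was -7.30 (adjusted p = 1.1e-07), from 3 libraries with few or no reads. A second Haao match, a conserved 6mer in coding sequence (chr17:83838505-83838574, phyloP 2.00), was too thinly read to be tested, at 5.37 ± 3.17 CPM in controls and 0.248 ± 0.497 CPM in KO. The 5' UTR match was not conserved by the same score (-0.127). Outside these matches, the 3' UTR region of Haao fell (log2 -2.31, adjusted p = 0.00165), and so did a coding region with 6mers of let-7 and miR-22 (-1.49, adjusted p = 0.0191), whose call was lost without KO replicate 1 (-0.94), KO replicate 3 (-1.35) or control 5 (-1.50).

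Pipox carries its match, an 8mer, in coding sequence near the start of the transcript (chr11:77893664-77893733). The region had 324, 303, 333, 372 and 319 CPM in controls and 12.9, 3.90, 3.74 and 18 CPM in KO. The controls were tightly grouped, with means of 330.3 ± 25.7 and 9.63 ± 7.02 CPM (log2 -5.21, SE 0.43, adjusted p = 7.9e-08). An 8mer in an intron of Fah (chr7:84595214-84595283) had 16.9, 35.9, 22.9, 12.8 and 41.6 CPM in controls and no read in any KO library. Set against the floor over the KO group, that is at least 32.2-fold lower.

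Hgd had 5 matched regions, none of them coding. The one read most, in a SINE repeat (7A1, chr16:37589170-37589239), averaged 25.7 ± 5.62 CPM in controls and 1.15 ± 0.873 CPM in KO (log2 -4.51, SE 0.55, adjusted p = 5.0e-06). Another SINE region with an 8mer had 10.9 ± 4.64 CPM in controls and none in KO, at least 13.5-fold lower, and was not tested. In the intron of Tat that holds its 7A1 match (chr8:109997036-109997105), reads averaged 20.3 ± 12.8 CPM in controls and 6.77 ± 4.14 CPM in KO (log2 -2.10, SE 0.57, adjusted p = 0.00617), with the groups overlapping. These were the 6 matched regions with enough reads for the test, and all 6 were lower in KO; of all matched regions tested in the file 89.0% were. Since a region can enter the test through the controls alone, as the Fah region did with no read in KO, these counts are a description only. The other 5 matched regions had too few reads for the test.

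With the miR-122-5p regions left out, 5 of the 7 genes still fell, Tat was called higher, and Tdo2 did not pass. Over the 8189 genes tested this way, 8.91% fell and 28.0% rose, and in 6.23% all KO libraries lay below all controls, while in 26.7% all lay above them. The median of the 7 was -1.29, against 0.36 over all genes. Of all calls on these sums 75.9% were higher in KO, or 58.1% with factors from counts outside miR-122-5p regions.

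Pipox without its 8mer region had 123, 159, 148, 142 and 105 CPM in controls and 58.6, 62.4, 63.5 and 42.5 CPM in KO. The groups stayed apart (means 135 ± 21.6 and 56.7 ± 9.75; log2 -1.29, SE 0.18, adjusted p = 3.6e-04). Haao was left with 52.1, 76.2, 55.4, 51.3 and 48.3 CPM against 9.94, 22.4, 14.9 and 16.3 CPM, again apart (log2 -1.93, SE 0.32, adjusted p = 8.8e-04). Hgd averaged 214 ± 31.2 and 109.6 ± 21.3 CPM (log2 -1.04, SE 0.19, adjusted p = 0.00177) and Fah 192 ± 30.6 and 74.6 ± 17.5 CPM (log2 -1.37, SE 0.18, adjusted p = 3.0e-04). Hpd has no such region, so its sum was the same, at log2 -1.48 (adjusted p = 0.00200).

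Tdo2 without its miR-122-5p region had 1173, 1458, 1523, 1566 and 1325 CPM in controls and 1033, 1305, 1253 and 1112 CPM in KO. The groups overlapped and the difference did not pass (log2 -0.40, SE 0.18, adjusted p = 0.108). With scaling factors from counts outside miR-122-5p regions it passed (log2 -0.64, adjusted p = 0.0167). Tat on this basis had a log2 fold change of 0.91 (SE 0.31, adjusted p = 0.0390), which was lost without KO replicate 2 (0.76, adjusted p = 0.0778), control 1 (0.88, 0.0656), control 4 (0.62, 0.197) or control 5 (0.86, 0.135) and with those factors (0.67, 0.119).

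Of the 93 regions, 55 had enough reads to be tested; 24 fell, 5 rose and 26 did not pass, while the other 38 held at most 90 reads each over all libraries. Over all regions tested in the file, 27.6% fell and 17.5% rose. Scaling moved the split between directions: 38.8% of all calls on regions were higher, against 50.6% with upper quartile factors and 28.7% with factors from regions without a miR-122-5p match, which shift the median region by 0.23 and -0.19. Among the 49 tested regions without a match, 18 fell and 5 rose, against 13.2% and 21.3% of such regions in the file. Coding regions made up most of the falls, with 14 of 34 lower and 1 higher, against 20.1% lower and 9.68% higher among all coding regions without a match. In 5' UTRs 2 of 5 fell, against 22.7%, and the 1 intron region tested did not pass, against 7.33% that fell. Of the 55 tested regions, 21 (38.2%) had every KO library below every control and 4 (7.27%) above, against 24.0% and 14.4% of all regions tested in the file. Regions of a gene share its RNA and are not independent of one another, and a region read in one group alone could pass the filter only by differing.

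**Figure D4:**
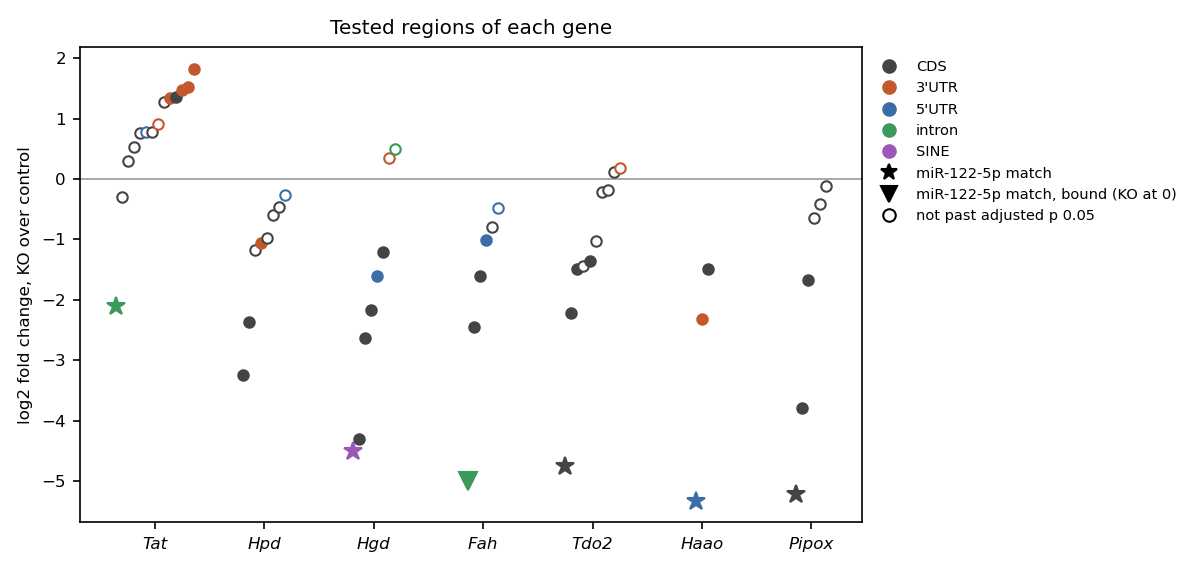
Log2 fold change (KO over control) of the 55 tested regions by gene; colours give the annotation, stars the miR-122-5p matches, open circles the regions that did not pass an adjusted p of 0.05, and the triangle the Fah intron region at its bound (KO at 0). The 5 regions called higher belong to Tat, and in each of the 6 genes with a tested match it is the lowest point.

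Some unmatched coding regions fell as steeply as matched ones. In Hgd, a region with no seed match of any family in the file (chr16:37593383-37593452) had 43.7, 58.3, 80.0, 53.0 and 51.0 CPM in controls and 0.994, 3.90, 4.67 and 1.63 CPM in KO. The means were 57.2 ± 13.8 and 2.80 ± 1.76 CPM (log2 -4.30, SE 0.43, adjusted p = 5.8e-07). In Pipox, a coding region with a miR-194 6mer (chr11:77882708-77882777) had 49.3, 78.5, 65.1, 55.5 and 37.6 CPM against 5.96, 3.90, 2.80 and 1.63 CPM (log2 -3.80, SE 0.37, adjusted p = 4.0e-07). Both sat far outside the control range. Another coding region of Pipox fell by 1.68 on the log2 scale, with a miR-191 6mer, and its other 3 tested coding regions, at -0.65 to -0.11, did not pass.

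In Hpd the largest fall was at a coding region with a 6mer of miR-122-3p, the strand opposite miR-122-5p in the hairpin (chr5:123172015-123172084). Its controls had 57.8, 71.8, 69.5, 47.9 and 61.8 CPM and its KO libraries 6.96, 7.80, 1.87 and 9.80 CPM (log2 -3.24, SE 0.41, adjusted p = 5.9e-06). The neighbouring coding region with a let-7 7m8 match (chr5:123172183-123172252) averaged 175 ± 90.2 CPM in controls and 30.4 ± 11.2 CPM in KO (log2 -2.37, SE 0.42, adjusted p = 2.0e-04); without KO replicate 1 the value was -1.68. The single 3' UTR region of Hpd fell less, at -1.06 (adjusted p = 0.00999), and missed the threshold without KO replicate 1 (-0.98, adjusted p = 0.0560). The other 5 tested regions of Hpd did not pass, with log2 values between -1.17 and -0.27.

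Fah fell most, outside its intron match, at a coding region with an 8mer of miR-103/107 (chr7:84589624-84589693). Reads there were 83.2, 96.4, 58.9, 78.6 and 67.1 CPM in controls and 14.9, 13.6, 14.9 and 13.1 CPM in KO, with no overlap (log2 -2.45, SE 0.29, adjusted p = 3.0e-06). Another coding region fell by 1.6 on the log2 scale (chr7:84588892-84588961), and a region at the 5' UTR fell by 1.01 at an adjusted p of 0.0430 that rose past the threshold without KO replicates 1, 2 or 3 or controls 2, 3 or 5. That region also missed it under DESeq2 (0.0585), with library totals (0.0750) or upper quartile factors (0.109), with no filter (0.0881) and in males alone (0.239). In Hgd, coding regions at chr16:37621833-37621902 (log2 -2.64) and chr16:37624335-37624404 (-2.17) and the 5' UTR region (-1.6) fell too, while a 3' UTR region and an intron region did not pass (0.35 and 0.49). A further coding region of Hgd (-1.21, adjusted p = 0.0410) missed the threshold without KO replicate 1, 2 or 3, under DESeq2 (0.0560), with upper quartile factors (0.0801) and in males alone (0.208). The region at chr16:37624335-37624404 missed the threshold without KO replicate 1 (-1.73, adjusted p = 0.0867), and its value was -3.01 without KO replicate 4.

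Of the 7 genes, 5 had regions in their 3' UTR. Summed over 3' UTR regions alone, Hpd fell (log2 -1.09, adjusted p = 0.00846) and Haao fell (-2.34, adjusted p = 0.00245), Tat rose (1.40, SE 0.32, adjusted p = 0.00377), and Hgd (0.10, adjusted p = 0.841) and Tdo2 (0.16, adjusted p = 0.608) did not pass. Fah and Pipox had none. Over all genes with such sums, 15.1% fell and 32.8% rose. Over coding regions alone the 6 other genes fell, from -1.10 in Tdo2 to -2.95 in Pipox, and Tat did not pass (0.57, adjusted p = 0.10); in the file 32.2% of coding sums fell and 10.5% rose. The Tdo2 3' UTR region (chr3:81957394-81957463) lies just outside the RefSeq span of the gene, so its assignment rests on the file.

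Reads in 3' UTRs made up 5.15% ± 0.794 of the reads of the 7 genes in the controls (SD, n = 5) and 18.1% ± 3.36 of those in the KO libraries (n = 4), whereas coding reads made up 83.1% ± 1.35 and 73.7% ± 3.17. For all genes the 3' UTR share was 31.6% ± 1.94 and 39.5% ± 0.968. These pooled shares rest largely on Tdo2 and, in the 3' UTR, on Tat: without Tat the 3' UTR share was 3.38% ± 0.275 in controls and 6.92% ± 1.34 in KO. The genes differed among themselves, with 96.6% ± 0.370 of Tdo2 reads but 47.9% ± 3.73 of Hgd and 16.3% ± 6.59 of Haao reads in coding sequence in controls. As a description, 29.8% ± 4.14 of the reads of Tat lay in its 3' UTR in controls and 49.2% ± 5.28 in KO.

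All 5 regions that rose belong to Tat, and 4 of them are in its 3' UTR. The sum over that 3' UTR was 53.6, 67.3, 109, 85.5 and 103 CPM in controls and 130.2, 460.0, 284 and 315 CPM in KO, so that even KO replicate 1, the lowest, lay above every control. The region with a let-7 7A1 match (chr8:109999306-109999375) had 19.7, 11.2, 45.7, 28.2 and 30.9 CPM against 51.7, 134, 80.3 and 116 CPM (log2 1.48, SE 0.39, adjusted p = 0.00543). The region with a miR-23 7A1 and a miR-17 family 6mer (chr8:109999619-109999688) had 22.6, 15.7, 22.9, 26.5 and 24.2 CPM against 34.8, 156, 87.8 and 75.1 CPM (log2 1.52, SE 0.35, adjusted p = 0.00170). In both, the KO values spread widely, and all of them exceeded the controls.

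The other Tat regions that rose were read less. The 3' UTR region with a miR-26 6mer (chr8:109999389-109999458) averaged 7.39 ± 5.24 CPM in controls and 43.7 ± 25.0 CPM in KO (log2 1.83, SE 0.48, adjusted p = 0.00456), with overlap at KO replicate 1. That with a miR-15/16 family 6mer (chr8:109998897-109998966) went from 8.77 ± 3.31 to 26.4 ± 10.2 CPM (log2 1.34, adjusted p = 0.0195), and a coding region with a miR-192 7A1 match (chr8:109993908-109993977) from 16.5 ± 5.44 to 52.7 ± 25.0 CPM (log2 1.36, adjusted p = 0.0131). The remaining 3' UTR region had a log2 value of 0.91 and did not pass (adjusted p = 0.105). Of the 14 tested Tat regions 8 did not pass, 6 of them coding, with log2 values of the coding ones from -0.29 to 1.27. An untested coding region with a miR-122-3p 6mer averaged 16.0 ± 8.06 CPM in controls and 7.03 ± 2.01 CPM in KO. Without control 4 the number of regions that rose was 1 in place of 5 and without control 5 it was 3; the miR-23 region was the one that passed in the first case. Among all 3' UTR regions without a miR-122-5p match, 31.1% rose and 7.63% fell, with a median of 0.54, so a rise in a 3' UTR is common in this file.

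**Figure D5:**
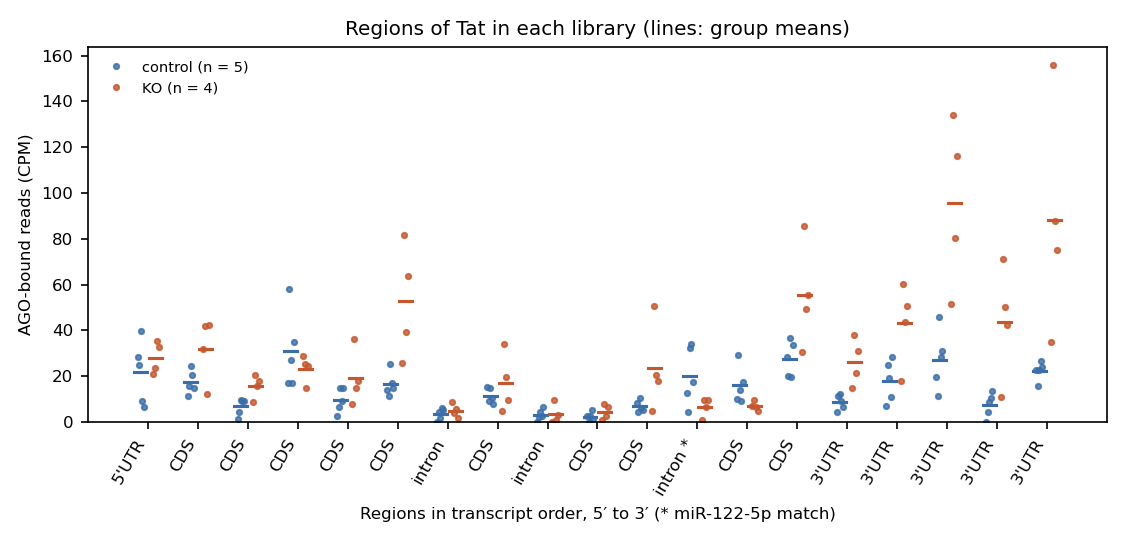
AGO-bound reads in each Tat region, in transcript order from 5' to 3', in CPM; points are libraries, lines are group means and the asterisk marks the intron region with a miR-122-5p match. The 5 regions at the right are the 3' UTR, where the let-7 region averaged 27.2 CPM in controls and 95.6 CPM in KO.

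Other enzymes of amino acid breakdown were read from 8 lists of 72 genes drawn up by pathway, 65 of which were in the file and 64 tested. The lists were drawn up with earlier results of these data known, so their counts beside all genes are a description only. Of the 64 tested genes 45 fell, none rose and 19 did not pass in the same edgeR fit, against 23.3% and 21.9% of all genes. Their median was -0.95. With miR-122-5p regions left out, 35 of 63 fell and none rose, against 8.91% and 28.0% of all genes. Markers of other cell types differ between the groups as given above, and their part in these counts was not tested.

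In the phenylalanine and tyrosine list 2 of 4 tested fell, Gstz1 (log2 -1.44), which acts between Hgd and Fah, and Qdpr (-0.55), which recycles the cofactor tetrahydrobiopterin. In the tryptophan list 4 of 6 fell, among them Kynu (-1.97), the kynureninase, and Ido2 (-1.26), a relative of Tdo2 in function. Kynu has 9 miR-122-5p regions, and without them it did not pass (-0.50, adjusted p = 0.0949). Of the glycine, serine, threonine and sarcosine list 10 of 11 fell, including Gldc of the glycine cleavage system (-2.54) and serine dehydratase Sds (-2.23).

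All 4 genes of the lysine list fell, with Dhtkd1 (-2.0) and glutaryl-CoA dehydrogenase Gcdh (-1.67) at the smallest p-values, as did all 4 of the histidine list, with Uroc1 (-1.13) and histidine ammonia lyase Hal (-1.90). In the proline and glutamate list 6 of 9 fell, led by liver glutaminase Gls2 (-3.93) and mitochondrial aspartate aminotransferase Got2 (-1.79). In the branched chain list 10 of 16 fell, with the dehydrogenase subunit Bckdha (-2.75) and the aminotransferase Bcat2 (-2.60). In the methionine and cysteine list 5 of 10 fell, with the sulfide oxidoreductase Sqrdl (-3.20) and cystathionine beta-synthase Cbs (-1.85). Without miR-122-5p regions several of these falls were smaller: Gldc was at -1.72, Dhtkd1 at -0.87, Hal at -1.29, Got2 at -0.66, Gls2 at -2.22, Bcat2 at -1.86, Sqrdl at -2.0 and Cbs at -0.6, all still past the threshold. Qdpr did not pass without them (-0.48, adjusted p = 0.0696). The last list also held Bhmt, whose value of 0.50 did not pass (adjusted p = 0.169).

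Genes outside the set whose levels most resembled the mean of the 7 over the 9 libraries were Atad3a (r = 0.995), a mitochondrial ATPase, Mthfd1 (r = 0.993), an enzyme of folate metabolism, and Slc30a4 (r = 0.992), a zinc transporter. These are Pearson correlations of log2 CPM over 9 libraries that fall into 2 groups, so they mostly restate the difference between groups and carry no test. Atad3a went from 63.6 ± 15.4 to 8.59 ± 3.53 CPM, Mthfd1 from 316 ± 37.3 to 132 ± 15.9 CPM and Slc30a4 from 215 ± 29.8 to 70.9 ± 6.58 CPM. Of the 7 genes themselves, 6 had an r with the mean between 0.952 and 0.984, and Tat had -0.588.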

How the data were processed

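AGO CLIP reads were counted by the authors over called regions in 9 mouse liver libraries. The deposited values are read counts per region, not normalized, per the file headers; Bowtie2 and mm10 are named in the submitters' processing notes, while the sources used here name no peak caller, duplicate handling or strand rule. The deposited log2 value of control over KO was not used, and the deposited score is the mean phyloP of the 6 matched bases, per the file headers. Each of 92645 unique regions was counted once from 143524 lines. Counts were summed per Ensembl ID, with and without regions holding any miR-122-5p match, the alternative B class included. Regions without a gene held 11.0% of counts.

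All genes or regions were fitted in edgeR 4.0.16 (R 4.3.3; TMM, filterByExpr, glmQLFit, glmQLFTest, sex as a term, Benjamini-Hochberg adjustment, threshold 0.05); sums without miR-122-5p regions kept the scaling of the full sums. The SE was derived from the test statistic and does not cover counting error in groups with few reads. Shares were compared by exact permutation. DESeq2 1.42.0 and other scalings, filters and sample sets were alternatives, and the fits were tested on simulated data. There few rows were changed, equally in both directions, so the simulation does not bear on the choice of scaling. Folds against a group at 0 use a floor of 3 counts over the group. Tables and plots used Python 3.11.15, pandas 2.3.3, numpy 2.4.6 and matplotlib 3.10.9.

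Each library is from a separate mouse per the labels, and replicates differed by more than sampling noise in every pair (chi-square over degrees of freedom 2.67 to 10.6). The 7 genes, the pathway lists and the marker lists were chosen with earlier results of these data known. Named were all 7 genes and some of their 81 regions with at least 20 counts, so the regions named are not complete. From each pathway list, the 2 genes with the smallest p-value among those that passed were named. So were the 3 genes of most similar pattern, and Bhmt was added after its values were seen. Reference symbols and spans are RefSeq's on GRCm38.p6, where all 7 genes matched.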

Additional observations from a re-analysis of the deposited data

Results flagged for a closer look

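In 4 of 128 groups of libraries examined (gene sums, shares, and regions of at least 100 counts) a single library stood apart from the others of its group by Dixon's criterion; chance flags about 1 in 20 such groups. Hpd summed over all regions was 190.0 CPM in KO replicate 2, against 116 to 128 CPM in the other KO libraries. Haao without miR-122-5p regions was 76.2 CPM in control 2, against 48.3 to 55.4 CPM in the other controls, and its coding region at chr17:83843222-83843291 was 44.9 CPM there, against 12.8 to 19.3 CPM. The Haao 5' UTR region with the miR-122-5p match was 16.9 CPM in KO replicate 1, against 0 to 1.87 CPM in the other KO libraries. The causes were not tested.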

How the results depend on the processing

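The count of genes that fell stayed at 6 of 7, and at 5 of 7 without miR-122-5p regions, under DESeq2 and in males alone. With 3' UTR regions alone 2 genes fell, since Fah and Pipox have none, and Hgd (0.10) and Tdo2 (0.16) changed sign. The single higher gene, Tat, was 0 with coding regions alone, 0 with factors from counts outside miR-122-5p regions (with and without those regions; chosen after seeing the data for the full sums) and 0 to 1 on leaving out a library. Among pathway genes 3' UTR regions alone gave 19 lower and 3 higher. Same-numbered libraries did not deviate together (r = -0.0903 to 0.0150 over 4 pairs, none closest to its own number). So few pairs cannot settle whether the numbers pair the mice, and the main fit does not pair them. With the replicate number as a block, 6 of the 7 genes still fell and Tat was at 1.00 (edgeR, adjusted p = 0.00522). In that fit 1 pathway gene and 8 regions were higher, and the Hgd coding region at -1.21 missed the threshold (adjusted p = 0.0607). Regions that rose numbered 5, or 8 with upper quartile factors, 8 without sex as a term, and 1 to 9 on leaving out a library. Regions that changed sign had not passed: in Tdo2, -0.01 and -0.08 with factors from regions without a match, -0.38 with the block, 0.03 for each of 2 with upper quartile factors, -0.14 without sex, and -0.0038 and -0.06 without controls 1 and 5, in a range of -0.06 to 0.52 on leaving out a library; in Pipox, 0.11 in males, 0.13 with upper quartile factors and 0.32 and 0.11 without KO replicates 1 and 2 (range -0.32 to 0.32); in Hgd, -0.02 with the block; in Tat, -0.11 and -0.02 without controls 4 and 5 (range -0.11 to 1.20), and 0.03 without control 5 (range -0.59 to 0.03). The causes were not tested. Depth limits 38 regions that could not be tested.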
